A study of Homo sapiens with 27 samples.

Results

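The inhibitors of DNA binding ID1, ID2, ID3 and ID4, the bone morphogenetic protein (BMP) ligands BMP2 and BMP4, and the BMP inhibitors SMAD6, SMAD7 and BAMBI were followed in MDA-MB-231 cells, an invasive human breast cancer line. They are 9 of the 11963 genes that had a probe set of their own on the array, and 16 of the 19064 probe sets that name a single gene name one of them. The genes were chosen by measured values of these same arrays, and which contrast chose them is not recorded. All of their levels and differences are therefore given as a description with no p-value. Which of them passed a test, how many did, and which kept a pass with arrays left out is description too and supports nothing. A gene was taken by its own probe sets, so a set that names both ID2 and ID2B was left out.

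Total RNA was hybridised to Affymetrix human expression arrays, and each probe set has a deposited log2 level in each array. Cells in DMEM with 10% FBS received DMSO as the vehicle, 5SGlcNAc at 50 µM or Thiamet-G at 25 µM. 5SGlcNAc inhibits OGT, the enzyme that adds the sugar O-GlcNAc to intracellular proteins, whereas Thiamet-G blocks OGA, the enzyme that takes it off. There was 1 array per treatment at 0, 2, 4, 6, 8 and 24 h, 18 arrays in all, and 3 arrays per treatment at 48 h, 9 in all. All are of the same line, with no genetic change named, and no untreated cells without vehicle are among the groups.

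BMP ligands bind serine and threonine kinase receptors, which phosphorylate SMAD1, SMAD5 and SMAD9, and these enter the nucleus with SMAD4 and switch on target genes. The ID genes are classic targets: their proteins pair with E proteins such as TCF3 and TCF12 but lack a DNA-binding region, so the pair cannot hold DNA. SMAD6, SMAD7 and BAMBI are inhibitors that the same pathway and the related TGF-beta pathway induce, and ID genes also respond to serum and growth factors.

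The arrays of 48 h had medians of 7.68 to 7.76 and the others of 7.43 to 7.53, so the sets were never compared by level. Levels of the 9 genes are not compared with each other either, because probes bind with unlike strength, and an array level has no true zero, so marker levels are only a rough check. The 5 mesenchymal markers VIM, CD44, FN1, AXL and CAV1 read 12.42 to 14.97 on average at 48 h. The 10 luminal breast genes ran from 3.98 for PGR to 13.6 for KRT18, the 7 fibroblast genes from 3.92 for POSTN to 9.33 for COL1A1, and the 5 blood cell genes measured of 7 from 4.14 for PTPRC to 7.82 for HBB. The signal of ACTB at its 3' end minus that at its 5' end, a measure of RNA integrity, reached 1.64 at 4 h with DMSO and 1.24 at 4 h with Thiamet-G. It was 0.42 to 0.95 in the other arrays of 0 to 24 h and 0.15 to 0.39 at 48 h. More RNA per cell and more cells that carry it cannot be told apart in these bulk samples.

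Time was compared with 0 h over the 3 treatment series, which served as a block, with limma and Benjamini-Hochberg adjustment over 11963 genes. A gene is said to have passed at an adjusted p under 0.05. Each later time was set against the same 3 arrays of 0 h, so the 5 comparisons are not independent of each other. At 2 h, 5 of the 9 genes passed against 0.51% of all genes: ID3, ID4, SMAD7 and BAMBI were higher and BMP4 lower. At 4 h 4 passed against 3.28% of all genes, at 6 h 3 against 4.49%, at 8 h 2 against 6.36% and at 24 h 4 against 9.97%. These shares describe genes picked from the same arrays, and nothing is read from them. Each time difference is a mean over the 3 series, and in 1 of them DMSO was added without an inhibitor. Time in culture, handling and time since the addition cannot be told apart. Some marker genes moved with time as well. Of the 10 luminal genes 2 passed as lower at 2, 4 and 6 h and 4 at 8 h, and at 24 h 3 were lower, among them CDH1 at -0.84, and EPCAM was higher at 0.22. At 24 h FN1, at -0.65, and the fibroblast gene LUM, at -1.05, were also lower. Their part in the results below was not tested.

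**Figure D1:**
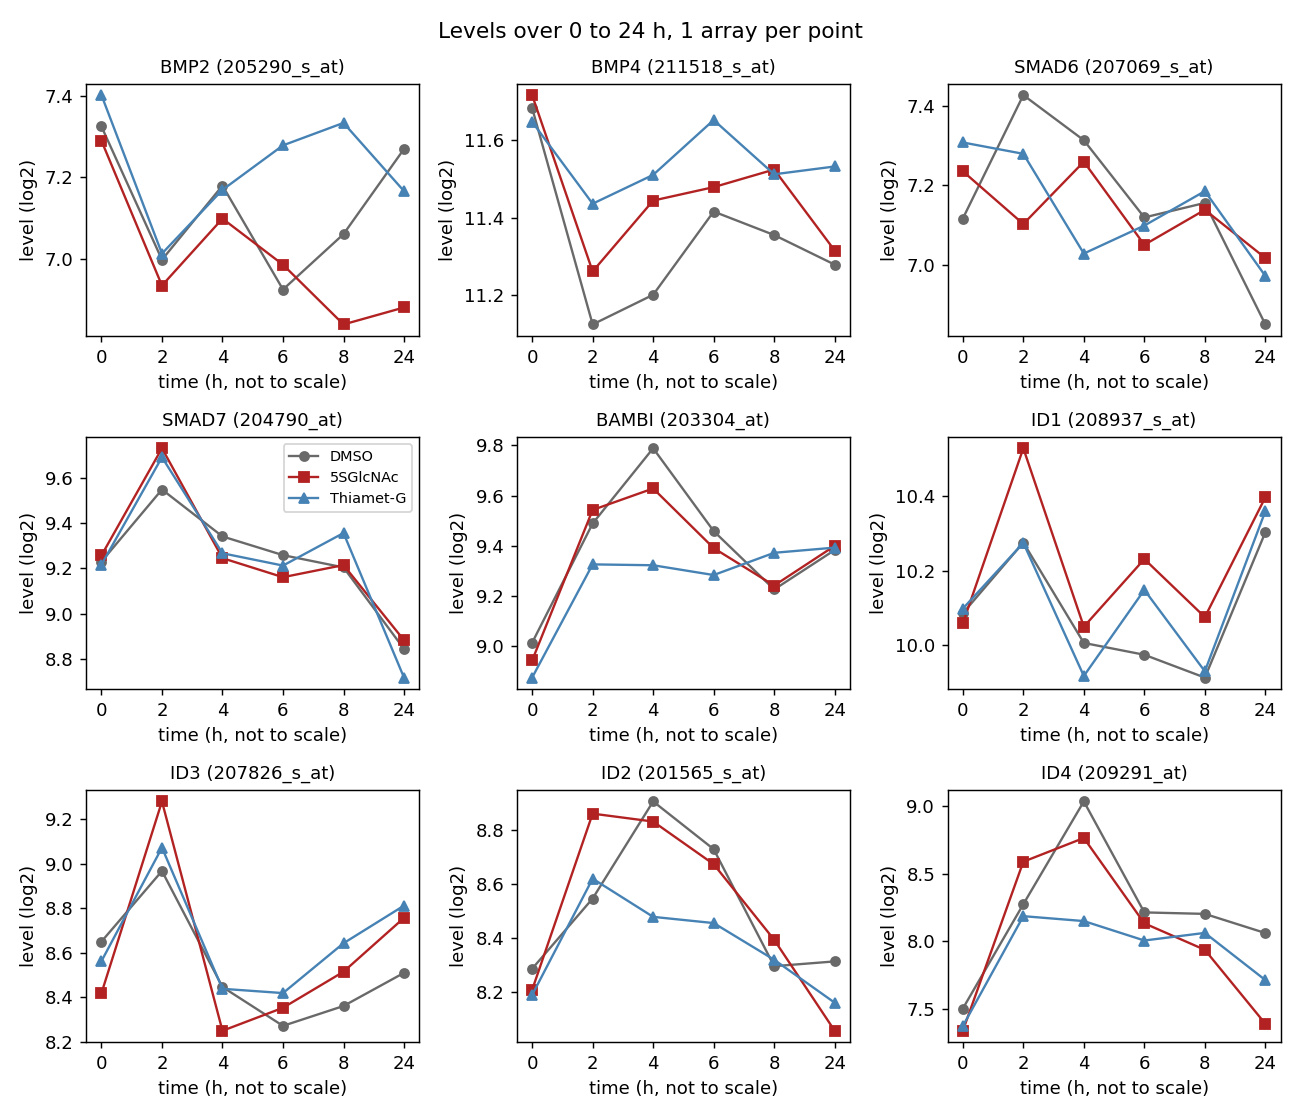
Level (log2) of the brightest probe set of each gene in the arrays of 0 to 24 h, against time in hours on an axis not to scale. Each point is 1 array, and lines join the DMSO, 5SGlcNAc and Thiamet-G series. ID1 and ID3 are up at 2 h and back by 4 h, and ID1 is up again at 24 h. ID2 stays up to 6 h, ID4 to 8 h and BAMBI to 24 h, and BMP4 dips at 2 h in all 3 series.

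Of the ligands, BMP4 read 11.68, 11.72 and 11.65 at 0 h in the DMSO, 5SGlcNAc and Thiamet-G series, and 11.13, 11.26 and 11.44 at 2 h. Every array of 2 h lay below every array of 0 h. The difference was -0.41 ± 0.068 (SE, 95% interval -0.55 to -0.26, 3 series), a fall of 1.33-fold. BMP4 then read 11.20, 11.44 and 11.51 at 4 h, 11.42, 11.48 and 11.65 at 6 h, 11.36, 11.52 and 11.51 at 8 h, and 11.28, 11.32 and 11.53 at 24 h. It fell against 0 h at 4 h, by 0.30 on the log2 scale, and at 24 h, by 0.31, and at 6 and 8 h the differences were -0.17 and -0.22 without passing. The DMSO array was the lowest of the 3 at each time from 2 to 24 h.

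BMP2, a ligand with the same receptors, has 2 probe sets. The brighter read 7.33, 7.29 and 7.40 at 0 h and 6.998, 6.934 and 7.013 at 2 h, so the groups were apart. Its difference at 2 h was -0.36 ± 0.091 (SE, 95% interval -0.55 to -0.16) and did not pass. The dimmer set gave -0.23 at 2 h, with an interval of -0.37 to -0.09. Later the series lay further apart: at 8 h the brighter set read 7.06 with DMSO, 6.84 with 5SGlcNAc and 7.33 with Thiamet-G, 1 array each.

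Of the inhibitors, SMAD7, which blocks BMP and TGF-beta receptors from inside the cell, read 9.23, 9.26 and 9.22 at 0 h and 9.55, 9.73 and 9.69 at 2 h. The arrays of 2 h were all above those of 0 h. The rise was 0.42 ± 0.067 (SE), or 1.34-fold, and by 4 h the levels were 9.34, 9.25 and 9.27, a difference of 0.05. At 24 h SMAD7 read 8.85, 8.88 and 8.72, below each of the 15 earlier arrays, a difference of -0.42 ± 0.067 from 0 h that passed.

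BAMBI, a membrane protein that resembles a type I receptor without the kinase, read 9.01, 8.94 and 8.88 at 0 h. It read 9.49, 9.54 and 9.33 at 2 h and 9.79, 9.63 and 9.32 at 4 h. Each of the 15 later arrays was above every array of 0 h. The rises against 0 h were 0.51 ± 0.085 at 2 h, 0.64 at 4 h, 0.43 at 6 h, 0.34 at 8 h and 0.45 at 24 h, and BAMBI passed at all 5 times. In the DMSO and 5SGlcNAc series the peak was at 4 h, while the Thiamet-G series stayed between 9.28 and 9.39 from 2 to 24 h.

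SMAD6, which acts mainly against BMP receptors and SMAD1, did not pass at any time. Its brightest set read 7.12, 7.24 and 7.31 at 0 h, 7.43, 7.10 and 7.28 at 2 h, and 6.85, 7.02 and 6.97 at 24 h. In this set the 24 h arrays were below those of 0 h, with a difference of -0.27 (95% interval -0.46 to -0.09). The dimmer sets gave 0.04, -0.01 and -0.22 at 24 h, and each of their intervals includes 0. At 2 h the DMSO array of the brightest set was above the 0 h arrays and the 5SGlcNAc array below them.

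The stretches before the start sites of BAMBI and SMAD6 are shown because each holds letters that bear on SMAD binding. They are the 250 bases before the start in RefSeq on GRCh38.p14, both on the plus strand, at chr10:28677271-28677520 for BAMBI and chr15:66701986-66702235 for SMAD6. Capitals mark GGCGCC, the GC-rich motif bound by BMP SMADs, GTCTAGAC, the palindrome of the SMAD box, and CCAAT, searched on both strands.
BAMBI: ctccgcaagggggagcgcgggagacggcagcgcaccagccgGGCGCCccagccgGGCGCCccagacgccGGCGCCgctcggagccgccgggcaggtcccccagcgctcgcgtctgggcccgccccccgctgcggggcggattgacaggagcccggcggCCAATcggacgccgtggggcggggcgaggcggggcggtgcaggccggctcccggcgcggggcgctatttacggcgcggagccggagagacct
SMAD6: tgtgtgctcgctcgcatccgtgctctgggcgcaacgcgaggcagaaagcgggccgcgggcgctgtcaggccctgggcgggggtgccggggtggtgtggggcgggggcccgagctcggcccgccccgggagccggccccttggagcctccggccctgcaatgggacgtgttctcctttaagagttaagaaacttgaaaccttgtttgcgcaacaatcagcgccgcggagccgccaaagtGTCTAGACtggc
BAMBI has GGCGCC 3 times, the first starting 209 bases before the start, and SMAD6 has GTCTAGAC once, from base 12 to base 5 before it. GGCGCC is also before 1 of the 3 starts listed for BMP4, from base 232 to base 227, and neither motif is before the others of the 9 genes with an entry. Of 35116 promoter stretches of the same length, 16.4% hold GGCGCC and 0.182% hold GTCTAGAC. A match describes the letters and is neither a bound site nor a cause of the levels above.

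Of the targets, ID3 read 8.65, 8.42 and 8.56 at 0 h in the DMSO, 5SGlcNAc and Thiamet-G series, and 8.97, 9.28 and 9.07 at 2 h. All 3 arrays of 2 h were above all 15 others. The rise was 0.56 ± 0.095 (SE, 95% interval 0.36 to 0.76), or 1.48-fold. By 4 h ID3 read 8.45, 8.25 and 8.44 and by 6 h 8.27, 8.35 and 8.42, each time below the 0 h value of its own series, and at 24 h it read 8.51, 8.76 and 8.81.

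ID1 moved with ID3 but less. It read 10.09, 10.06 and 10.10 at 0 h and 10.28, 10.53 and 10.28 at 2 h, with no overlap, a difference of 0.28 ± 0.065 (SE, 95% interval 0.14 to 0.42) that did not pass. At 4 h it was back at 10.01, 10.05 and 9.92. At 24 h it read 10.30, 10.40 and 10.36, again above every array of 0 h, and rose by 0.27 ± 0.065, which passed. The 5SGlcNAc array of 2 h was the highest of the 18 for both ID1 and ID3.

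ID4 had the widest range of the 9 genes. It read 7.51, 7.34 and 7.38 at 0 h and 8.27, 8.59 and 8.19 at 2 h, a rise of 0.94 ± 0.16 (SE) or 1.92-fold. At 4 h it read 9.03 with DMSO, 8.76 with 5SGlcNAc and 8.15 with Thiamet-G, a rise of 1.24 ± 0.16 (95% interval 0.90 to 1.58) or 2.36-fold. Arrays of 0 h did not overlap with those of 2, 4, 6 or 8 h. The rise was 0.71 at 6 h and 0.66 at 8 h. At 24 h the series were apart, at 8.06 with DMSO, 7.39 with 5SGlcNAc and 7.72 with Thiamet-G, and the difference of 0.32 did not pass.

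ID2 followed ID4 on a smaller scale, from 8.29, 8.21 and 8.19 at 0 h to 8.55, 8.86 and 8.62 at 2 h and 8.91, 8.83 and 8.48 at 4 h. All arrays of 2 and 4 h were above those of 0 h. The difference was 0.45 ± 0.097 at 2 h without passing, and the rise was 0.51 at 4 h and 0.39 at 6 h. Under 4 of the alternative settings ID2 passed at 2 h, and under 2 of these ID1 did too. By 8 h ID2 read 8.30, 8.39 and 8.32, and by 24 h 8.31, 8.06 and 8.16, which overlaps with 0 h.

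The fit at 4 h was repeated without the array with the highest ACTB value, that of DMSO. Without the DMSO array of 4 h, ID4 and BAMBI passed, at 1.11 and 0.54, and ID2 at 0.44 and BMP4 at -0.25 did not. That fit holds fewer arrays, and 125 of all genes passed in it, beside 392 with the array kept. Leaving out the Thiamet-G array of 4 h as well was chosen after the data were seen. ID4 and BAMBI then differed by 1.41 and 0.67, and ID2 and BMP4 by 0.57 and -0.23. The array of 4 h left then was that of 5SGlcNAc, with an ACTB value of 0.89. The part of RNA integrity in the calls at any time was not tested.

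With 1 of the 3 series left out, directions of the genes that passed stayed but calls were lost. At 2 h no gene of the 9 passed without the DMSO series or without the 5SGlcNAc series, and BMP4 and BAMBI passed without the Thiamet-G series. Over those 3 fits the difference at 2 h ranged from 0.41 to 0.69 for ID3, 0.79 to 1.03 for ID4, 0.39 to 0.47 for SMAD7, 0.46 to 0.54 for BAMBI and -0.51 to -0.33 for BMP4. At 4 h none passed without the DMSO series or the 5SGlcNAc series and 3 without the Thiamet-G series, and ID4 ranged from 1.10 to 1.47. At 6 h the counts were 0, 0 and 1, and at 8 h none passed in any of the 3. At 24 h the counts were 2 without DMSO, 1 without 5SGlcNAc and 3 without Thiamet-G, and SMAD7 passed in all 3, at -0.44 to -0.38. Calls fell over the whole array as well. Without DMSO, 5SGlcNAc and Thiamet-G in turn, 0, 6 and 28 of all 11963 genes passed at 2 h and 0, 4 and 151 at 4 h. In the same order 3, 22 and 104 passed at 6 h, 1, 112 and 85 at 8 h, and 325, 266 and 426 at 24 h.

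Several genes have more than 1 probe set, which gives a second reading of the same RNA. For ID4, 209292_at read 3.77 at 0 h and 4.52 at 2 h on average, and 209293_x_at 7.48 and 7.96. Their differences at 2 h were 0.75 (95% interval 0.38 to 1.12) and 0.48 (0.29 to 0.67), so all 3 sets of ID4 were higher at 2 h by unequal amounts. At 4 h they gave 0.66 and 0.39 against 1.24 for the brightest. At 8 h they gave 0.20 (-0.17 to 0.57) and 0.16 (-0.03 to 0.35) against 0.66 for the brightest. With the mean of its sets, ID4 did not pass at 8 h. The dimmer set of ID2, 201566_x_at, gave 0.34 at 2 h (0.07 to 0.61) and 0.24 at 4 h (-0.03 to 0.51). At 6 h it gave 0.05 (-0.22 to 0.32), and with the mean of its sets ID2 did not pass there. The 3 dimmer sets of SMAD6 gave -0.16 to 0.05 at 2 h, and each of these intervals includes 0.

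**Figure D2:**
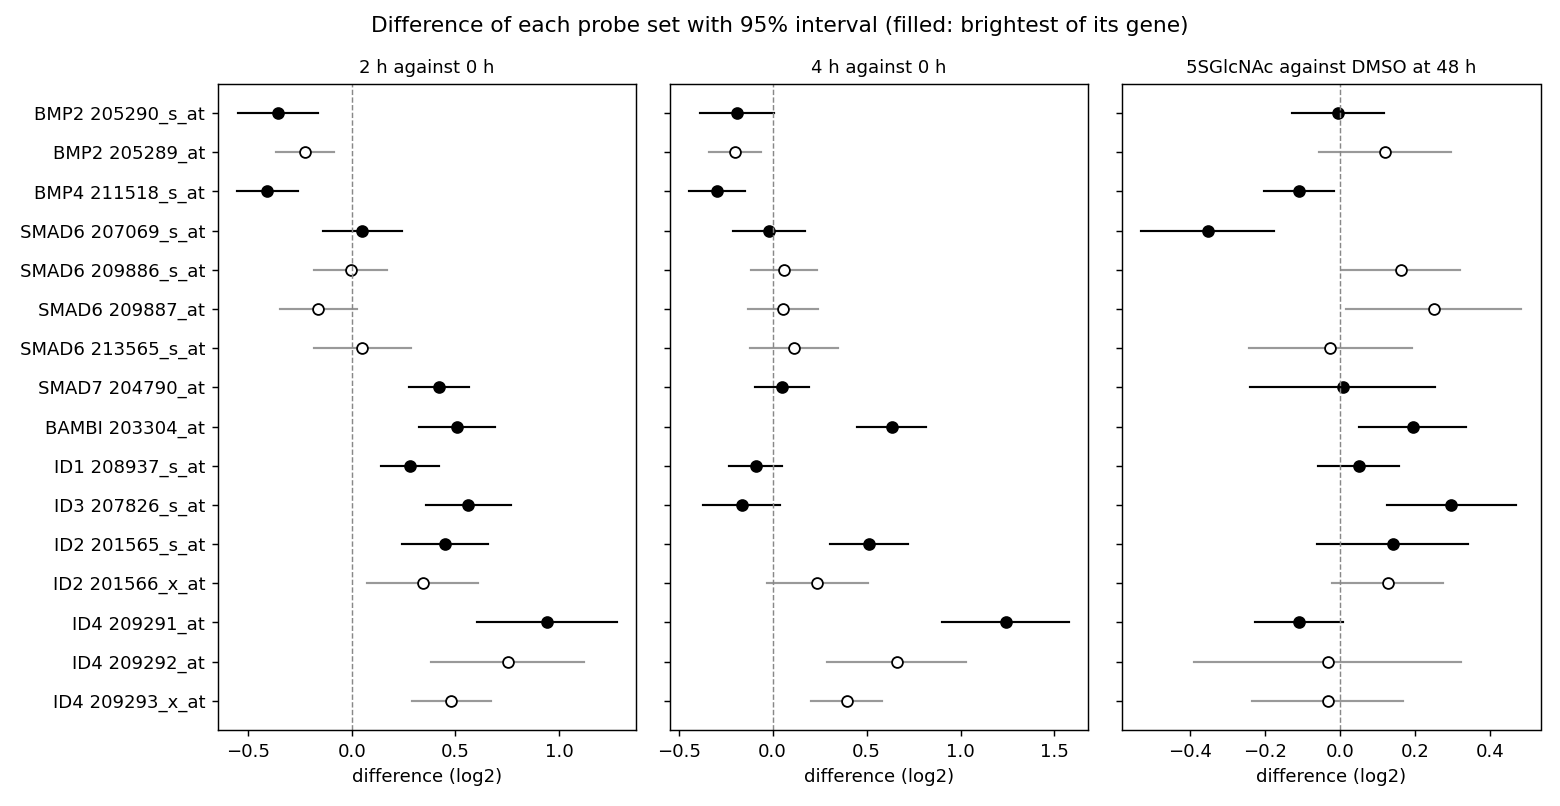
Difference (log2) of each of the 16 probe sets at 2 h and 4 h against 0 h and with 5SGlcNAc against DMSO at 48 h, with 95% intervals. Filled points are the brightest set of a gene and open points the others. The sets of ID4 lie on one side at 2 and 4 h, whereas at 48 h the SMAD6 sets lie on both sides of 0.

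The ID genes fell into pairs over the 18 arrays of 0 to 24 h. Pearson's r was 0.73 between ID1 and ID3 (Spearman's rho 0.64) and 0.89 between ID2 and ID4 (rho 0.87). Across the pairs it was -0.02 for ID1 and ID2, -0.10 for ID1 and ID4, 0.01 for ID2 and ID3, and -0.02 for ID3 and ID4. BAMBI went with ID4 (r 0.84) and ID2 (0.70), and against BMP4 (-0.75). SMAD7 had its highest values with SMAD6 (0.66) and ID2 (0.60), and BMP2 with BMP4 (0.515). These 18 points share times, series and normalization, so the values describe the arrays and carry no p.

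**Figure D3:**
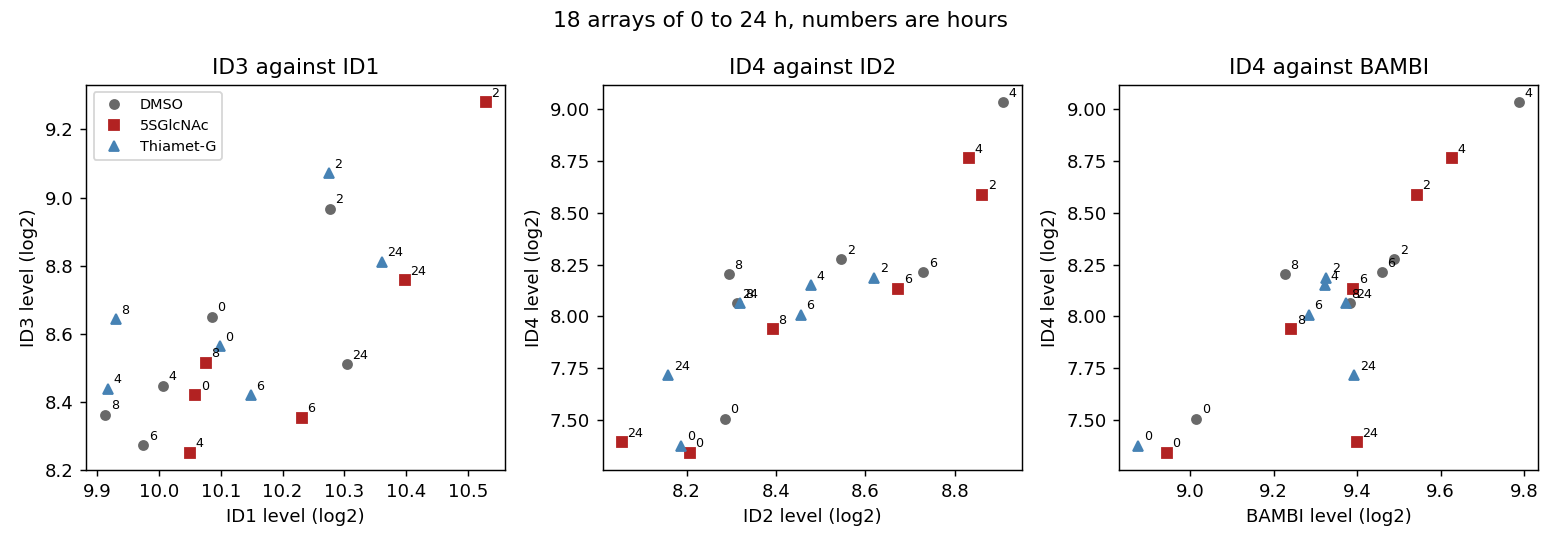
Level (log2) of ID3 against ID1, of ID4 against ID2 and of ID4 against BAMBI in the 18 arrays of 0 to 24 h, 1 point per array with its hour. The arrays of 2 h stand at the top of the plot of ID3, and those of 0 h near the bottom of the plots of ID4. The 5SGlcNAc array of 24 h has a low ID4, at 7.39. Its BAMBI of 9.40 is close to the 9.38 and 9.39 of DMSO and Thiamet-G at 24 h.

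Among 5981 genes above the median level, those most like ID3 over these arrays were TIMM22 (r 0.83), PFN1 (0.79), CLK1 (0.75), NUP62 (0.75) and MRPS2 (0.75). Those most like ID1 were PMPCA (0.78), CCT3 (0.77), PTCD3 (0.76), HOMER3 (0.75) and THAP4 (0.75). No gene was in both lists. ID1 stood 9th in the order of likeness to ID3.

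Because ID1 with ID3 and ID2 with ID4 moved together, the stretches before their start sites are set out by pair. They are the 250 bases before the start in RefSeq on GRCh38.p14. ID1 lies at chr20:31605039-31605288 on the plus strand, ID3 at chr1:23559502-23559751 on the minus strand, ID2 at chr2:8681806-8682055 on the plus strand and ID4 at chr6:19837120-19837369 on the plus strand. Capitals mark TATAAA, the core of the TATA box, and CCAAT, both searched on either strand, so that ATTGG is CCAAT read from the other one.
ID1: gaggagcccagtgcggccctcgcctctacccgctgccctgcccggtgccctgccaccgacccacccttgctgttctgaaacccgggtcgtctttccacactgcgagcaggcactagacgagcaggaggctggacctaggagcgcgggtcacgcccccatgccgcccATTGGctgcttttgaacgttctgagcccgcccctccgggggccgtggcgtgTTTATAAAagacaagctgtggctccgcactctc
ID3: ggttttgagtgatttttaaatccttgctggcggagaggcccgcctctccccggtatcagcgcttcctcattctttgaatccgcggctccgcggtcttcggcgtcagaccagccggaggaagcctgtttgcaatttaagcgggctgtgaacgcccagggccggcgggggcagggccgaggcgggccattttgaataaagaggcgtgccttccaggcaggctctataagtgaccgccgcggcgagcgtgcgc
ID2: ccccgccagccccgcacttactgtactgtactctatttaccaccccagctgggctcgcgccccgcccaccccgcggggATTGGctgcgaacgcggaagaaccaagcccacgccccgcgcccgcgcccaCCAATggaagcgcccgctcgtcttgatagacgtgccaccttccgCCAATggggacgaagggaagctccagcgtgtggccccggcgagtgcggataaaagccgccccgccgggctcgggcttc
ID4: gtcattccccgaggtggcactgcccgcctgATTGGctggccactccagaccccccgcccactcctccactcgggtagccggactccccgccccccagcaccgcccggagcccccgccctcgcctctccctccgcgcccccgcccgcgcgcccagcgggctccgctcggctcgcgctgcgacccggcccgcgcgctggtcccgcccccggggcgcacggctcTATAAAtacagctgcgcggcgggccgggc
TATAAA is in ID1, as overlapping matches on both strands that begin 33 and 31 bases before the start, and in ID4, 29 bases before it. It is in 10.7% of the 35116 stretches. CCAAT is in ID2 3 times and in ID1 and ID4 once each, and in 32% of all stretches. ID3 holds neither in this window, and neither GGCGCC nor GTCTAGAC is in any of the 4. TATAAA was thus present in 1 gene of each pair. Of the 9 genes, 8 have an entry in the promoter table.

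At 48 h each inhibitor was compared with DMSO in 3 arrays against 3, and all 9 arrays shared 1 estimate of the spread. The same DMSO arrays serve both comparisons. With 5SGlcNAc 2 of the 9 genes passed, against 10.2% of all genes: ID3 was higher and the brightest probe set of SMAD6 lower. With Thiamet-G none passed, against 3.49% of all genes, and in that limma fit 2373 genes had an unadjusted p under 0.05. Between the inhibitors 3 were lower with 5SGlcNAc, against 13.7% of all genes: ID4, BMP4 and the brightest set of SMAD6. Of the marker genes, KRT19, CDH1 and LUM were lower with 5SGlcNAc than with DMSO, at -0.42, -0.29 and -0.49, and none passed with Thiamet-G. Between the inhibitors 8 were lower with 5SGlcNAc: the mesenchymal CAV1 and FN1, the luminal KRT19, CDH1, EPCAM and XBP1, LUM at -0.95, and LYZ of blood cells. Their part in the results on the 9 genes was not tested.

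**Figure D4:**
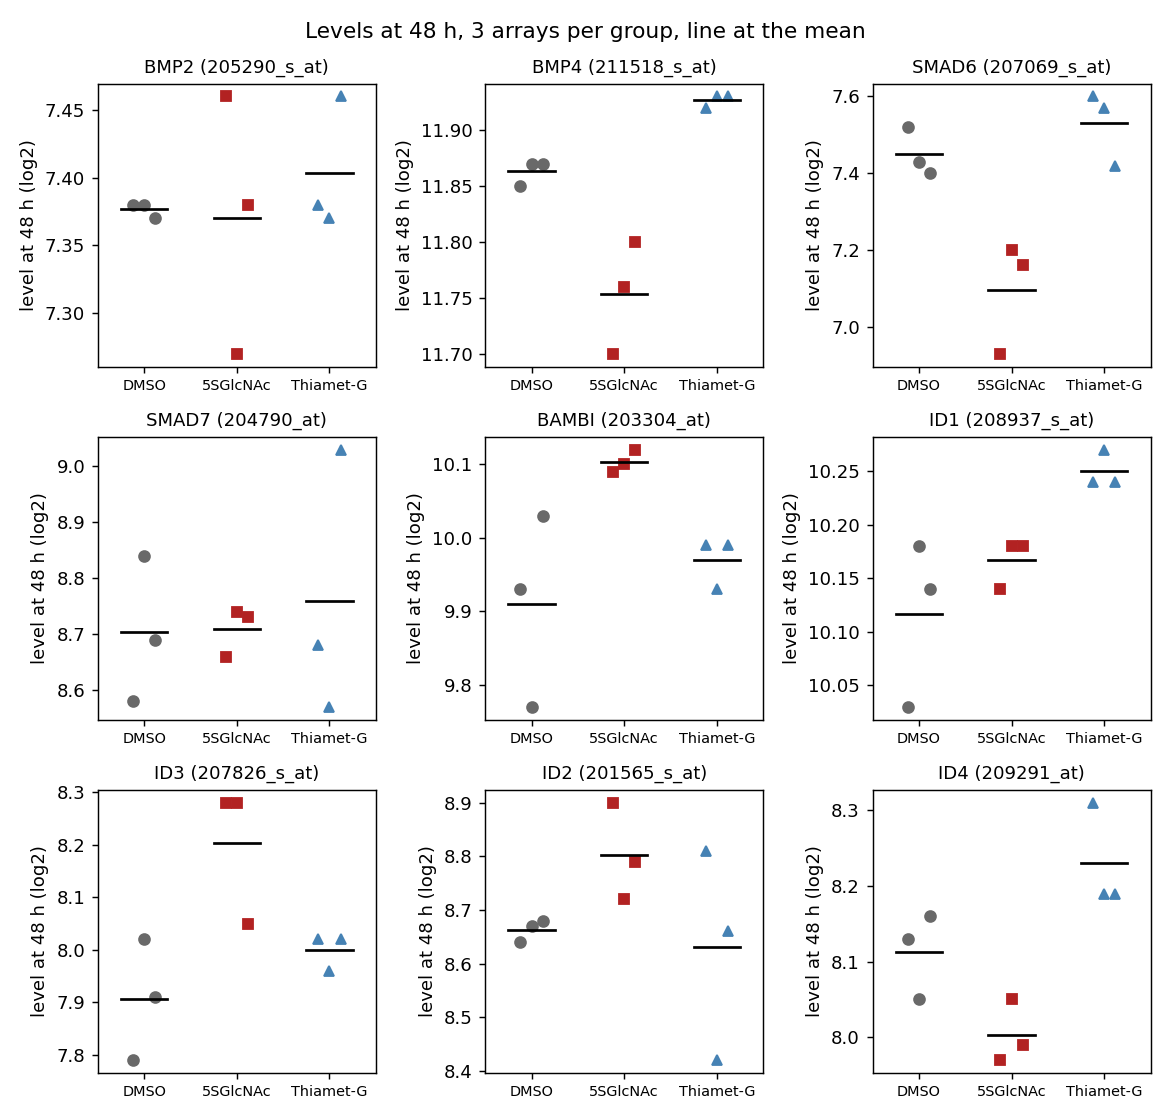
Level (log2) of the brightest probe set of each gene at 48 h in 3 arrays each of DMSO, 5SGlcNAc and Thiamet-G, with lines at the group means. For BMP4 the 3 groups do not overlap, and for SMAD6 the 5SGlcNAc arrays lie below the other 6.

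BMP4 read 11.85, 11.87 and 11.87 with DMSO, 11.70, 11.76 and 11.80 with 5SGlcNAc and 11.92, 11.93 and 11.93 with Thiamet-G. The groups were in the order 5SGlcNAc, DMSO, Thiamet-G without overlap. 5SGlcNAc differed from DMSO by -0.11 ± 0.039 (SE) and Thiamet-G by 0.06 ± 0.039, neither of which passed. The difference between the inhibitors was -0.17 (95% interval -0.26 to -0.08), so BMP4 was 1.13-fold lower with 5SGlcNAc. BMP2 differed by -0.01 with 5SGlcNAc (95% interval -0.13 to 0.11) and by 0.03 with Thiamet-G (-0.09 to 0.15).

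The brightest set of SMAD6, 207069_s_at, read 7.52, 7.43 and 7.40 with DMSO, 6.93, 7.20 and 7.16 with 5SGlcNAc and 7.60, 7.57 and 7.42 with Thiamet-G. All 5SGlcNAc arrays were lower than the other 6. The difference from DMSO was -0.35 ± 0.078 (SE), and from Thiamet-G -0.43 ± 0.078. The other 3 sets did not follow: 209886_s_at gave 0.16 (95% interval 0.01 to 0.32), 209887_at 0.25 (0.02 to 0.48) and 213565_s_at -0.03 (-0.24 to 0.19) against DMSO. With the mean of the 4 sets in place of the brightest, SMAD6 differed by 0.0083 and did not pass. The fall is thus a reading of 1 probe set, and no direction for SMAD6 as a gene is given.

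SMAD7 differed by 0.01 with 5SGlcNAc (95% interval -0.24 to 0.25) and by 0.06 with Thiamet-G (-0.19 to 0.30). BAMBI read 9.93, 9.77 and 10.03 with DMSO, 10.09, 10.10 and 10.12 with 5SGlcNAc and 9.99, 9.93 and 9.99 with Thiamet-G. The 5SGlcNAc arrays were above the other 6. The difference of 0.19 ± 0.062 (SE, 95% interval 0.05 to 0.33) from DMSO did not pass, nor did that of 0.06 with Thiamet-G.

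ID3 read 7.79, 8.02 and 7.91 with DMSO, 8.28, 8.28 and 8.05 with 5SGlcNAc and 8.02, 7.96 and 8.02 with Thiamet-G. The lowest 5SGlcNAc array, at 8.05, was just above the highest of the other 6, at 8.02. The rise with 5SGlcNAc was 0.30 ± 0.076 (SE, 95% interval 0.13 to 0.47), or 1.23-fold. ID1 read 10.03, 10.18 and 10.14 with DMSO, 10.14, 10.18 and 10.18 with 5SGlcNAc and 10.24, 10.27 and 10.24 with Thiamet-G. Its highest group was Thiamet-G, with a difference of 0.13 ± 0.046 (95% interval 0.03 to 0.24) that did not pass, and ID1 with 5SGlcNAc differed by 0.05.

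ID4 read 8.13, 8.05 and 8.16 with DMSO, 7.97, 8.05 and 7.99 with 5SGlcNAc and 8.31, 8.19 and 8.19 with Thiamet-G. The inhibitor groups were on either side of DMSO, with -0.11 and 0.12, and differed from each other by -0.23 ± 0.051 (SE). The dimmer ID4 sets gave -0.01 (95% interval -0.37 to 0.34) and -0.02 (-0.22 to 0.18) between the inhibitors. ID2 read 8.64, 8.67 and 8.68 with DMSO and 8.90, 8.72 and 8.79 with 5SGlcNAc, apart by 0.14 ± 0.089, and 8.81, 8.42 and 8.66 with Thiamet-G, which overlapped with DMSO. ID2 did not pass in either comparison.

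Most of the 48 h calls were lost in at least 1 fit with 1 array left out. Those fits hold fewer arrays. Over all genes 679 to 984 passed in them against DMSO, beside 1225 with every array. Against Thiamet-G 926 to 1937 passed, beside 1634. Against DMSO, ID3 did not pass without 5SGlcNAc replicate 1 or 2, at 0.26 in both cases, without DMSO replicate 1, at 0.24, or without DMSO replicate 3, at 0.30. The brightest set of SMAD6 did not pass without 5SGlcNAc replicate 1, at -0.27, or DMSO replicates 1 and 2, at -0.32 and -0.36. Against Thiamet-G, ID4 did not pass without 5SGlcNAc replicate 1 or 3, at -0.21 and -0.22, or Thiamet-G replicate 1, at -0.19. BMP4 did not pass there without 5SGlcNAc replicate 1 or 2, at -0.15 and -0.18, or Thiamet-G replicate 3, at -0.17. The brightest set of SMAD6 against Thiamet-G passed in all 6 such fits, at -0.49 to -0.35, but the mean of the 4 sets differed there by -0.065 and did not pass, and the dimmer sets gave 0.06, 0.19 and -0.07.

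Over 2 to 24 h the mean difference of each inhibitor from DMSO was tested across the 5 times, with time as a block and 1 array per treatment and time. An effect that grew, faded or reversed with time counts as spread in this fit, so an effect at only some times could be missed. The same 5 DMSO arrays serve both inhibitors. With 5SGlcNAc none of the 9 genes passed, and 0% of all genes did, with 524 at an unadjusted p under 0.05. With Thiamet-G none passed either, with 0% of all genes and 1111 at an unadjusted p under 0.05.

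BMP4 with Thiamet-G was above DMSO at all 5 times, by 0.31, 0.31, 0.24, 0.16 and 0.25 at 2, 4, 6, 8 and 24 h, and at 0 h the difference was -0.04. Its mean difference was 0.25 ± 0.047 (SE, 95% interval 0.15 to 0.35). With 5SGlcNAc BMP4 was also above DMSO at all 5 times, by 0.04 to 0.24, with a mean of 0.13 ± 0.047. The smallest of these, at 24 h, was close to the 0.03 seen at 0 h.

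ID1 with 5SGlcNAc was above DMSO at all 5 times, by 0.25, 0.04, 0.26, 0.16 and 0.09, with a mean of 0.16 ± 0.049 (SE). ID4 with Thiamet-G was below DMSO at all 5 times, with differences of -0.88 to -0.09 and a mean of -0.33 ± 0.13, and at 0 h the difference was already -0.13. The largest gap was at 4 h, where both arrays had high ACTB values, and with that time left out the mean was -0.20. ID4 with 5SGlcNAc differed from DMSO by 0.31 at 2 h and by -0.67 at 24 h. The other means lay between -0.19, for ID4 with 5SGlcNAc, and 0.17, for ID3 with Thiamet-G.

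The effect of each inhibitor at 48 h was also set against its mean effect over 2 to 24 h. With 5SGlcNAc none of the 9 genes differed, against 1.78% of all genes, and with Thiamet-G none did, against 0% of all genes, with 1582 and 775 genes at an unadjusted p under 0.05 in limma. The differences ran from -0.29 for SMAD6 to 0.22 for BAMBI with 5SGlcNAc, and from -0.19 for BMP4 to 0.45 for ID4 with Thiamet-G.

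The rest of the pathway was read from 74 listed genes, of which 62 had a probe set of their own. They comprise other BMP ligands, receptors, SMAD transducers, extracellular antagonists, intracellular inhibitors, other BMP-responsive genes, the TGF-beta arm and the E proteins. The list was drawn up with earlier results of these data known, so its calls and p-values are description too. At 2 h none of the 62 passed in limma, against 0.51% of all genes. Of the 62, 9 had an unadjusted p under 0.05 in limma, and 872 of all 11963 genes had. The median difference of the 62 was -0.02 beside -0.0025 over all genes. At 4 h 3 were higher and 1 lower, or 6.45% of them, at 6 h 4 and 2 (9.68%), at 8 h 3 and 4 (11.3%), and at 24 h 6 and 5 (17.7%), against 3.28%, 4.49%, 6.36% and 9.97% of all genes. The list's share was not tested against that of all genes. Its genes had a median of 0.04 at 24 h beside 0.01 over all genes. None of HEY1, MSX1, MSX2, DLX5, RUNX2 and HAMP, the other BMP-responsive genes measured, passed at any of the 5 times. These genes were dim over 0 to 24 h, from percentile 17.2 of all probe sets for DLX5 to 43.7 for HEY1. A change in genes this dim could be missed.

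CCN2, a matricellular gene of the TGF-beta arm, rose by 0.40 ± 0.055 (SE) at 4 h (adjusted p = 0.00163), and LEMD3, which binds SMADs at the nuclear envelope, by 0.32 (adjusted p = 0.00597). TGFBR3, the co-receptor betaglycan, rose by 0.50 at 8 h (adjusted p = 0.00675). TCF4, an E protein, fell by 0.55 at 8 h (adjusted p = 0.00243). Each of these 4 lost its call without at least 1 of the series, with the highest adjusted p at 0.134 for CCN2, 0.202 for LEMD3, 0.107 for TGFBR3 and 0.0615 for TCF4. PMEPA1, a TGF-beta-induced inhibitor of SMAD signalling, fell by 0.95 ± 0.082 at 24 h (adjusted p = 7.19e-06), and FSTL3, a secreted antagonist, by 0.49 (adjusted p = 0.00069). Both passed without any 1 of the series, with adjusted p of at most 0.00375 and 0.0352.

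Of the other genes that passed, those of the receptors were ACVR2A, which rose by 0.24 at 4 h, and TGFBR3 and NEO1, which rose by 0.48 and 0.33 at 24 h. The ligand BMP6 rose by 0.34 at 6 h. Among secreted antagonists, FST, which traps activins and BMPs, fell at 4, 6, 8 and 24 h, by 0.26, 0.32, 0.30 and 0.35, and FSTL3 already fell by 0.37 at 8 h. TWSG1 and FSTL1 rose by 0.39 and 0.20 at 24 h. Of the intracellular inhibitors, TOB1 rose by 0.40 at 6 h and 0.43 at 24 h, and the phosphatase PPM1A by 0.27 at 6 h and 0.28 at 8 h. In the TGF-beta arm CCN2 rose by 0.31, 0.22 and 0.20 at 6, 8 and 24 h, PMEPA1 fell by 0.42 at 8 h and TGFBI by 0.36 at 24 h. TCF4 fell by 0.39 at 6 h and 0.31 at 24 h. Each of these calls was lost without at least 1 of the 3 series.

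With 5SGlcNAc at 48 h 2 of the 62 were higher and 4 lower than DMSO, a share of 9.68% that is near the 10.2% of all genes, with a median of 0.03 beside 0.01 over all genes. ACVRL1, a type I receptor, rose by 0.32 ± 0.060 (SE, adjusted p = 0.00979). CHRDL1, a secreted BMP antagonist, fell by 0.40 ± 0.059 (adjusted p = 0.00372) and TGFBR2, the type II TGF-beta receptor, by 0.35 ± 0.047 (adjusted p = 0.00217). These 3 passed with any 1 array left out, with adjusted p of at most 0.0439, 0.019 and 0.0135. CCN2 rose by 0.26 (adjusted p = 0.0175), and PMEPA1 fell by 0.27 (adjusted p = 0.0184) and FSTL1 by 0.14 (adjusted p = 0.0451). The last 3 lost the call without at least 1 array, at adjusted p up to 0.0677, 0.0727 and 0.154.

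With Thiamet-G at 48 h none of the 62 passed in limma, with 10 at an unadjusted p under 0.05, beside 2373 of all 11963 genes. Between the inhibitors 2 were higher with 5SGlcNAc and 7 lower, or 14.5%, again near the 13.7% of all genes. CHRDL1 differed by -0.52 (adjusted p = 0.000721) and TGFB2, a TGF-beta ligand, by -0.57 (adjusted p = 0.00254), and both passed with any 1 array left out. The E proteins TCF4 and TCF12 differed by -0.42 (adjusted p = 0.0152) and -0.24 (adjusted p = 0.0122). TCF12 passed with any 1 array left out, as did TGFBR2 at -0.26, and TCF4 reached an adjusted p of 0.0607. ACVRL1 at 0.25, CCN2 at 0.21, TGFBR3 at -0.24 and FST at -0.14 also passed, and each lost the call without at least 1 array. Over 2 to 24 h none of the 62 passed in limma with either inhibitor. An unadjusted p under 0.05 was seen for 4 with 5SGlcNAc and 6 with Thiamet-G, beside 524 and 1111 of all genes.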

How the data were processed

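The authors deposited log2 values for each probe set, obtained with RMA (version not stated), per the submitters' processing notes. RMA equalises the arrays processed together, so a shift of most genes is hidden. Arrays of 48 h are deposited to fewer decimals and were handled apart. Symbols were updated through Entrez identifiers, and the brightest probe set represented a gene, with no filter on dim genes. Tests were two-sided, from limma 3.58.1 (lmFit, eBayes) under R 4.3.3, adjusted by Benjamini-Hochberg over 11963 genes at a threshold of 0.05. The scripts were tested on simulated data. The median standard error of a difference was 0.0615 at 48 h, 0.0632 over 2 to 24 h and 0.0804 for a time against 0 h. The number of arrays limits this precision. The labels do not call the replicates separate cultures, so p-values measure the spread between samples, which may be technical. In fits that use the arrays of 0 to 24 h, differences between treatments that vary with time are part of that spread.

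The members and gene lists were chosen with earlier results of these data known. All members were named with every probe set. From each other pathway list, genes past the threshold were named, at most 4 per list and comparison by size. Genes of the marker lists were named after their values were seen. The 5 genes most like ID1 and ID3 were named. The promoter motifs were picked after a wider look at these stretches. Alternatives were other scalings (quantile, median), dropping genes under the 40th percentile, averaging a gene's probe sets, dropping sets ending in _x_at, a robust variance with trend, the compared groups alone, a replicate block, and leaving out arrays, times or series.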

Additional observations from a re-analysis of the deposited data

Results flagged for a closer look

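The effect of 5SGlcNAc on BMP4 pointed in opposite directions in every array of the 2 sets. All 3 arrays of 48 h were below the DMSO mean, and the 5SGlcNAc array was above the DMSO array at each time from 2 to 24 h. The difference between the effects was -0.24 (95% interval -0.37 to -0.11), a description of a gene chosen by these arrays, and it did not pass across all genes.

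The effect of Thiamet-G on ID4 was opposite in the same way, above the DMSO mean in all 3 arrays of 48 h and below DMSO at each of the 5 times. Before that, at 0 h, the Thiamet-G array was already below DMSO, at -0.13. The difference between the effects was 0.45 (95% interval 0.07 to 0.82) and did not pass either. The dimmer ID4 sets gave -0.02 and -0.01 against DMSO at 48 h.

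CCN2 was the pathway gene for which the 5SGlcNAc effects differed by test, by 0.33 ± 0.067 (SE) with an adjusted p of 0.0143 in limma. It was 1 of 62, a share of 1.61% that is near the 1.78% of all genes. All groups had fewer than 4 arrays, so no array was tested as an outlier.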

How the results depend on the processing

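Over all alternatives, 1157 of 1245 recomputed differences of the 9 genes kept their side of the threshold, 66 lost the call and 21 gained it. In 43 that never passed, the sign changed. SMAD6 with 5SGlcNAc against DMSO at 48 h reversed, to 0.0083, with the mean of its 4 probe sets, which read in unlike directions. With that mean, 1 of the 9 genes passed for 5SGlcNAc against DMSO at 48 h, against Thiamet-G, and at 8 h. The same fits had 1146, 1558 and 746 of all genes passing. With trend and robust variance 4 passed for 5SGlcNAc against DMSO at 48 h, beside 1794 of all genes. With that variance 1, BMP4, passed for Thiamet-G over 2 to 24 h and for the change of the 5SGlcNAc effect, beside 20 and 349. Without dim genes BMP4 also passed in the last 2 (1 each), beside 10 and 343 of all genes kept. With only the 2 groups 1 passed for 5SGlcNAc against DMSO at 48 h, beside 1235 of all genes. With the replicate block 1 passed there, since ID3 lost its call, beside 895 of all genes. In their departures from the group means, same-numbered arrays correlated at -0.33 to 0.17 and arrays with unlike numbers at -0.25 to 0.25. These values cannot tell whether same-numbered samples shared more than a number. At 2 h ID1 and ID2 gained the call with trend and robust variance and without dim genes (7 passed, beside 92 and 101 of all genes). ID2 also gained it with quantile and median scaling (6 passed, beside 74 and 58). Without the DMSO array of 4 h, 2 passed at 4 h, beside 125 of all genes. Leaving out that of Thiamet-G too was an alternative added after seeing the data and leaves 1 array at 4 h.

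With 1 array left out, 0 to 2 passed for 5SGlcNAc against DMSO at 48 h and 1 to 3 against Thiamet-G. The same fits had 679 to 984 and 926 to 1937 of all genes passing. With 1 series left out the counts were 0 to 2 at 2 h, 0 to 3 at 4 h, 0 to 1 at 6 h, 0 at 8 h and 1 to 3 at 24 h. Beside these, 0 to 28 of all genes passed at 2 h, 0 to 151 at 4 h and 3 to 104 at 6 h. At 8 h it was 1 to 112 of all genes and at 24 h 266 to 426. These fits hold fewer arrays.

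The genes passing among all 11963 were 1225 for 5SGlcNAc at 48 h (679 to 1794 over the alternatives), 417 for Thiamet-G (101 to 949) and 1634 between them (926 to 2245). They were 61 at 2 h (0 to 101), 392 at 4 h (0 to 535), 537 at 6 h (3 to 870), 761 at 8 h (1 to 1205), 1193 at 24 h (266 to 1510) and 213 for the change of the 5SGlcNAc effect (156 to 349). The cause of the other changes was not tested. SMAD6 and BMP2 fell under the filter on dim genes, so they have no value there.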

Other observations

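The probe set 213931_at names both ID2 and ID2B and was left out of the gene tests. It read 5.43, 5.55 and 5.90 at 0 h in the DMSO, 5SGlcNAc and Thiamet-G series, 5.66, 5.58 and 5.45 at 2 h, and 5.90, 5.86 and 5.43 at 4 h. In the DMSO and 5SGlcNAc series it was higher at 4 h than at 0 h, as ID2's brighter set was, and in the Thiamet-G series it was lower.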
